A study of Mactra quadrangularis with 2 samples.

Results

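The unigenes CL7923.Contig1_All, CL717.Contig3_All, CL717.Contig7_All and Unigene49441_All, assembled from RNA of clam digestive glands, had between 1 and 3 fragments each in a control library and between 576 and 5925 in a library from clams exposed to BDE-47. From which organism in the glands these unigenes come was not tested. A unigene is a transcript contig assembled from the reads themselves, without a genome, and contigs of one CL cluster resemble each other in sequence. The 4 listed members were chosen for this contrast, by their near absence in the control and by database matches to amelogenin, proline-rich and mucin-like proteins, so their difference between the libraries is a description and carries no test. The ending _All is left off below. With every other contig of clusters CL717 and CL7923 added, the set held 11 of the 124752 unigenes.

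Glands came from Mactra veneriformis (organism label Mactra quadrangularis) and were taken after 3 days. Control water held 0.05% (v/v) of the solvent DMSO, and exposed clams had the same solvent with BDE-47, a brominated diphenyl ether flame retardant, at a nominal 5 µg/L. The study describes 3 replicates of 30 clams a group, with the glands of 30 clams pooled for RNA, but each group has 1 library in the tables, whose link to the replicates no source used here states. The libraries held 15.6 M (control) and 15.9 M (BDE-47) fragments. Single animals were not measured, no difference below has a replicate check, and the 95% intervals cover counting error only.

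Mucins are large secreted or membrane proteins whose long serine- and threonine-rich repeats carry O-linked sugars, and they form the slime that coats the gut, gill and mantle of bivalves. Amelogenin is the proline-rich matrix protein of vertebrate tooth enamel. Proteins built from short repeats rich in proline, glycine or serine occur in silks, mussel byssus and mollusc shell. Because such repeats resemble one another in composition, a database search can pair them with proteins of unrelated function, and a match then describes composition more than kinship.

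None of the 4 members had a mollusc protein as its Nr match. In the authors' deposited table CL7923.Contig1 matched GF20960 of the fly Drosophila ananassae in Nr with a bit score of 61.6, and opossum amelogenin in Swiss-Prot with 56.2. CL717.Contig3 matched putative proline-rich protein 21 of the pigeon with a score of 59.7, and in Swiss-Prot the rat entry of splicing factor 3A subunit 2, an RNA splicing protein, with 60.1, as the authors' deposited table gives them. For CL717.Contig7 the authors' deposited table named a trypanosome cell surface gene family, with a score of 53.1, and bovine smooth muscle myosin light chain kinase, with 73.2. Unigene49441 was the one member with a mucin name: the authors' deposited table gave human mucin-5AC, a gel-forming mucin of airway and stomach, with a score of 99, the KEGG entry intestinal mucin-2, and NOTCH2 of a choanoflagellate in Nr with 58.5.

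Against all described unigenes the Nr scores of the members were low. The median Nr score was 116.3 over 4312 unigenes, and the scores of the 4 members lay at or above 17.5% (CL7923.Contig1), 15.0% (CL717.Contig3), 13.5% (Unigene49441) and 3.71% (CL717.Contig7) of them. Over the 3170 unigenes with a Swiss-Prot match, with a median score of 118.5, the same shares were 11.7%, 16.5%, 43.3% and 29.0%. The mucin-5AC score of Unigene49441 thus lay nearer the middle of its database than the other 3. Of the described unigenes with an Nr match, 53.3% had a mollusc protein as the first entry, a share counted after the data were seen. The name repeat-rich and mucin-like rests on these matches, and no sequence was used here with which to count repeats. CL717.Contig7 carried neither a mucin nor a proline-rich name.

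The amelogenin-like CL7923.Contig1, of 1846 bases, had 2 control fragments and 5909 in the BDE-47 library. Per length this was 0.0694 FPKM (fragments per kilobase, scaled to the counted total; counting interval 0.00840 to 0.251) in the control and 200.7 FPKM (196 to 206) in BDE-47. The fold of fragments per library total was 2893 (801 to 23895). In a bulk sample, more cells of a type and more RNA per cell cannot be told apart. Its sister contigs, both short and with no description, had 0 fragments in the control. CL7923.Contig2 reached 37 with BDE-47, at least 12.1-fold higher, and CL7923.Contig3 had 35, at least 11.4-fold higher, where a count of 0 was set at a floor of 3 fragments in the control library. With the control at 0 in place of the floor, the lower 95% counting limits of these folds were 9.34 and 8.81. All 3 contigs were thus higher in BDE-47, and CL7923.Contig1 held 98.8% of the cluster's 5981 BDE-47 fragments. Summed, the cluster had a fold of 2928 (810 to 24186).

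The proline-rich CL717.Contig3, of 1835 bases, had 3 control fragments against 5925 with BDE-47, or 0.105 FPKM (0.0216 to 0.306) and 202 FPKM (197 to 208). Its fold was 1934 (661 to 9380). Another 3 contigs of the cluster carried the same Nr and Swiss-Prot matches and nearly the same length, between 1832 and 1868 bases, and all had 0 fragments in the control. Against the same floor of 3 fragments, CL717.Contig1 had 1939 fragments in BDE-47 and was at least 633-fold higher. Likewise against the floor, CL717.Contig5 had 990 and was at least 323-fold higher, and CL717.Contig2 had 797 and was at least 260-fold higher. Against the upper counting limit of a 0 in place of the floor, the folds were at least 514 (CL717.Contig1), 262 (CL717.Contig5) and 211 (CL717.Contig2). The 3 contigs so showed the pattern of CL717.Contig3 at lower counts, and no described unigene outside the cluster shared either database entry. Unigene49905, with 0 control and 21 BDE-47 fragments, matched a protein of the same name, proline-rich protein 21, from another species, Myotis davidii.

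The remaining contigs of CL717 were short. CL717.Contig7, of 562 bases, had 1 control fragment against 576 with BDE-47, a fold of 564 (101 to 22316), and its level was 64.3 FPKM (59.1 to 69.7) in BDE-47. CL717.Contig4, of 432 bases and with no description, had 0 and 965 fragments. It was at least 315-fold higher against the floor, with a lower counting limit of 256. CL717.Contig6, of 466 bases, had 1 and 45 fragments, a fold of 44.1 (7.52 to 1779), and the authors' deposited table paired it with the human kinase WNK2 at a score of 56.2. All 7 contigs of CL717 were higher in BDE-47, and none had more than 3 fragments in the control. The cluster held 5 control and 11237 BDE-47 fragments, a fold of 2201 (943 to 6779), and CL717.Contig3 had 52.7% of the latter.

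**Figure D1:**
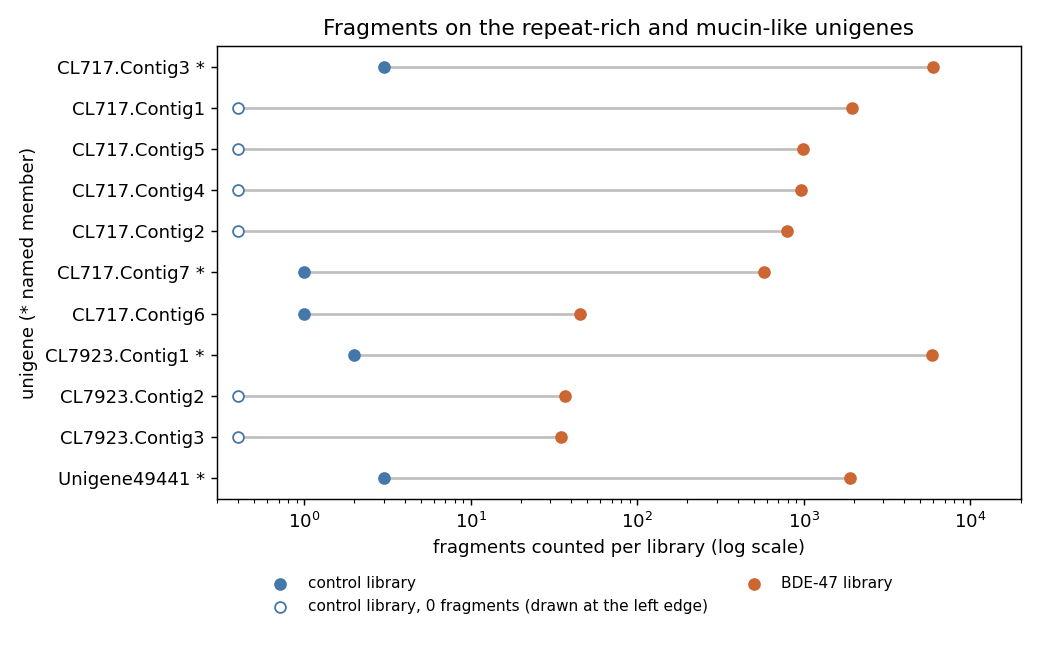
Fragments counted on each of the 11 unigenes (x axis, log scale) in the control library (blue) and the BDE-47 library (orange), with the 4 listed members starred and counts of 0 drawn as open points at the left edge. Every control value is at most 3, and the BDE-47 values run from 35 to 5925.

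The mucin-like Unigene49441, of 1284 bases and in no cluster, had 3 control fragments and 1881 in the BDE-47 library. Its level was 0.150 FPKM (0.0309 to 0.437) in the control and 91.8 FPKM (87.7 to 96.1) in BDE-47, and its fold was 614 (210 to 2980). Unigenes that shared a match with it were lower in BDE-47 than in the control. CL7742.Contig1 and Unigene68494, also matched to mucin-5AC, had 1036 and 503, and 36 and 6 fragments, in control and BDE-47, and were 2.10-fold lower (1.89 to 2.34) and 6.13-fold lower (2.56 to 17.8). Unigene16912, which shared the NOTCH2 match, had 126 and 54 fragments and was 2.38-fold lower (1.72 to 3.34). The 3 were named because they share a match, after their values were seen.

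In BDE-47 the order of the members' levels per length was CL717.Contig3, CL7923.Contig1, Unigene49441 and CL717.Contig7. The first pair did not differ beyond counting error, with a ratio of CL7923.Contig1 over CL717.Contig3 of 0.991 (0.956 to 1.03) in FPKM. Unigene49441 lay below both and above CL717.Contig7, with intervals that did not overlap. Within CL717, CL717.Contig4 came next after CL717.Contig3 with 140.1 FPKM (131 to 149). CL717.Contig1, at 65.8 FPKM (62.9 to 68.8), could not be told from CL717.Contig7, while CL717.Contig5 and CL717.Contig2 had 33.2 and 27.3 FPKM and CL717.Contig6 had 6.05 FPKM. By fragments, CL717.Contig3 and CL7923.Contig1 ranked 285 and 288 among all unigenes of the BDE-47 library. The 11 unigenes together made up 0.120% of the BDE-47 fragments (0.118 to 0.121) and 6.4e-05% of the control fragments, or 19099 against 10 fragments.

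The folds themselves were not ordered beyond counting error among the 4 members, since all 4 intervals overlapped between 801 and 2980. With 1 to 3 control fragments, the control count sets the width of each interval. The order also turned on how a count of 0 was treated. By log2 ratio of FPKM plus 0.1, CL717.Contig4 was the highest of the 11 unigenes at 10.45, followed by CL7923.Contig1 at 10.21 and CL717.Contig3 at 9.95. In the authors' deposited table, where a control FPKM of 0 counts as 0.001, CL717.Contig4 had a log2 ratio of 17.10, while CL7923.Contig1 had 11.50 and CL717.Contig3 had 10.92, behind all 6 contigs with no control fragment. CL717.Contig6 was the lowest of the 11 either way, with 4.70 by FPKM plus 0.1 and 5.46 in the authors' deposited table.

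**Figure D2:**
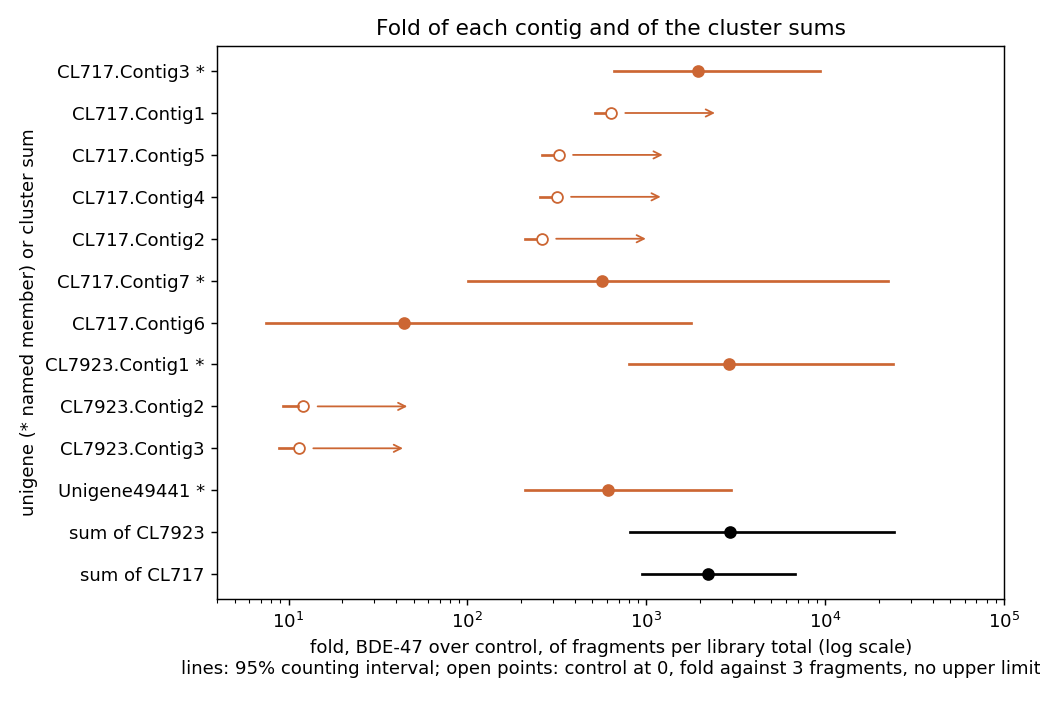
Fold of BDE-47 over control (x axis, log scale) of each of the 11 unigenes and of both cluster sums, with 95% counting intervals as lines. Open points have 0 control fragments and stand at the fold against a floor of 3 fragments, with an arrow for the missing upper limit. The intervals of the 4 starred members overlap, and the sums lie at 2928 for CL7923 and 2201 for CL717.

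A unigene was counted as higher or lower when the size of its log2 ratio (FPKM plus 0.1) reached 1, it had at least 20 fragments over both libraries, and its counting interval excluded a fold of 1. All 11 unigenes were higher by this rule, where 12.4% of the 89164 unigenes with 20 fragments were higher and 16.2% lower. The members were chosen on this same contrast, so the count supports nothing. The authors' deposited table called all 11 up, as it did 6.09% of all unigenes. The median log2 ratio of the 89164 unigenes was -0.11, and scaling by TMM factors shifted every ratio by 0.12 in log2, small beside the members' ratios.

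How rare the pattern was can be read from all unigenes. Of the 124752, 16342 had at most 3 fragments in the control, and their median in BDE-47 was 8 fragments. In the other direction, 10779 had at most 3 fragments in BDE-47, with a median of 10 in the control and a highest value of 703. At most 3 fragments in the control with at least 1000 in BDE-47 were found in 10 unigenes (0.00802%), and the reverse in 0. Among the 10, 4 were CL717.Contig3, CL7923.Contig1, CL717.Contig1 and Unigene49441, which the choice of members fixes in part. With 500 in place of 1000 fragments, 32 unigenes had the pattern (0.0257%), 8 of them from the 11, and 6 had the reverse.

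The 6 other unigenes of the 10 most like the members in both counts were of mixed names. Unigene40530, with 2 and 2397 fragments, resembled a WAP domain protein, a family that holds protease inhibitors. Unigene57541, with 1 and 2199 fragments, resembled a histone deacetylase of a slime mould in Swiss-Prot. CL16330.Contig1, with 0 and 1156 fragments, had the name caspase 8, a protease of cell death. Unigene44794, with 0 and 1404 fragments, matched a hypothetical aphid protein, and CL6837.Contig1 (1 and 2330) and Unigene57338 (1 and 1479) had no description. None of the 6 carried a mucin, amelogenin or proline-rich name.

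**Figure D3:**
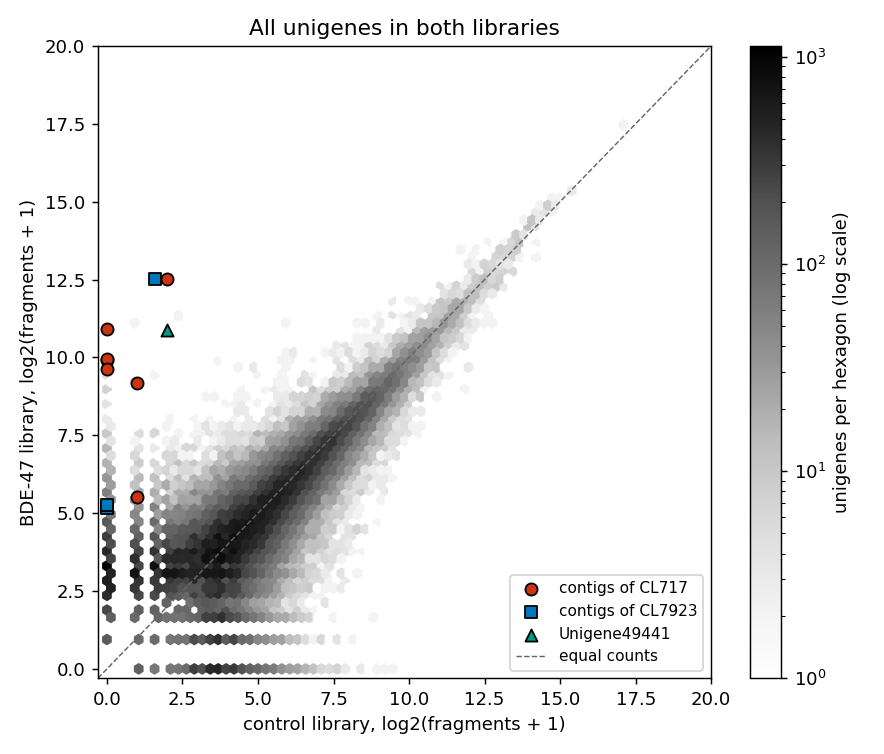
Fragments of all 124752 unigenes as log2(fragments + 1) in the control (x axis) and BDE-47 (y axis) libraries, with grey hexagons for the number of unigenes and coloured marks for the 11 described here. The marks lie at the left edge, at 0 to 3 control fragments, and the upper ones stand clear of the cloud.

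Few clusters had every contig higher or every contig lower, which by the rule also needs at least 20 fragments on each contig. Of 5492 clusters with at least 3 contigs, 978 held both higher and lower contigs, 16 had every contig higher and 21 every contig lower. Both CL717 and CL7923 were among the 16. Of the 476 clusters with at least 7 contigs, CL717 was the 1 cluster in which every contig was higher, and 168 held both directions. No more than 2 clusters of at least 3 contigs had at most 3 control fragments on every contig and at least 1000 in BDE-47 when summed, and they were CL717 and CL7923. Clusters of 2 contigs were not counted, but among them CL6837 (1 and 3097 fragments) and CL16330 (0 and 1172) met the same cut. Contigs of a cluster can share reads, so they are not separate measurements, and CL717 and CL7923 were chosen with these values known.

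The wider group of mucins and gel-forming proteins, matched on words in the descriptions, went both ways. Of its 78 unigenes, 74 passed the rule, 26 higher and 48 lower, and 35.1% of those past the rule were higher beside 36.1% of all 4077 described unigenes past it. The median log2 ratio was -1.41, beside -1.19 for all described unigenes. Summed, the list was higher in BDE-47, with 29218 control and 64706 BDE-47 fragments, or 29215 and 62825 without Unigene49441. The largest BDE-47 counts lay on Sushi or von Willebrand names without the word mucin, such as CL444.Contig1 (4756 and 11696 fragments) and CL212.Contig3 (646 and 10540). CL505.Contig1, also of a Sushi name, went the other way (7331 and 3543). Among mucin names Unigene49441 had the most BDE-47 fragments, and no sum over mucin names alone was taken. The highest were Unigene41963 (19 and 9354 fragments, 482-fold, 309 to 801), a protein of Sushi and von Willebrand domains whose Swiss-Prot match is the nacre protein PIF, then Unigene49441, then Unigene56698 of the same Sushi family (30 and 12117 fragments, 396-fold, 277 to 586). Next outside the members came Unigene56120, matched to a frog integumentary mucin, with 0 and 100 fragments, at least 32.6-fold higher. Unigene68703 and Unigene69188, named for von Willebrand factor D and EGF domains, were 15.6-fold lower (7.32 to 39.8) and 15.3-fold lower (7.18 to 39.0). CL3294.Contig1, also like the frog mucin, had 114 and 17 fragments and was 6.85-fold lower (4.09 to 12.2). With the word mucin alone, a narrowing made with the values in view, 11 were higher and 18 lower.

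Words for repeat-rich structural proteins matched 65 unigenes, of which 22 were higher and 36 lower, with 37.9% of those past the rule higher and a median log2 ratio of -1.17. The words also caught proteins of other kinds, among them serine- and arginine-rich splicing factors, galectins and scavenger receptors. Without the 47 histidine-rich, cysteine-rich, arginine-rich and galectin names, left out after the values were seen, 18 remained, with 13 higher, 3 lower and a median log2 ratio of 5.88. Of those 13, 5 were contigs of CL717 and CL7923, and without them 8 were higher and 3 lower. The median of 5.88 includes those 5 contigs. Over all described unigenes past the rule, 36.1% were higher. The 18 still held chance matches, such as names of a heat shock protein STI and of BAG6, a chaperone. Of the 22, 5 were contigs of CL717 and CL7923, and without them 17 were higher, or 32.1%. The list held 25115 control and 33586 BDE-47 fragments, but 25110 and 18026 without those 5 contigs, so they carried the higher sum. The list was led by those 5 contigs. Among unigenes of at least 100 fragments, the next was Unigene54343, a silk-like and proline-rich match with 0 and 136 fragments, at least 44.4-fold higher. Under the same cut came a contig named tandem repeat galectin (CL3826.Contig2), a sugar-binding protein, 3.02-fold higher (2.82 to 3.23) while its cluster summed to a log2 ratio of 0.14, and Unigene20305, histidine-rich, 2.48-fold higher (1.95 to 3.19). Below the cut, Unigene58294 (0 and 46 fragments), Unigene50695 (0 and 50), Unigene54557 (0 and 86), Unigene53885 (0 and 37) and Unigene49905 (0 and 21) had larger log2 ratios than that galectin contig, from 5.68 to 7.03. Over the list, 12 unigenes had 0 fragments in the control and 6 had 0 in BDE-47. The lowest, all 3 matched to a histidine-rich slime mould protein, were CL7676.Contig2 at 14.7-fold (9.52 to 23.7), CL15898.Contig1 at 8.56-fold (5.43 to 14.2) and Unigene1745 at 7.07-fold lower (5.09 to 10.1).

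Words for enzymes of mucin-type O-glycans matched 6 unigenes, 3 higher and 3 lower. Of these, 3 were polypeptide N-acetylgalactosaminyltransferases, the family that starts such chains, with 1 higher and 2 lower. The other 3 were named as beta-1,3-galactosyltransferases, a name that covers sugar chains of other kinds and does not by itself place them in mucin-type chains. CL19985.Contig2, named beta-1,3-galactosyltransferase 1, an enzyme that adds galactose to sugar chains, had 15 and 1016 fragments and was 66.3-fold higher (40.0 to 119). Unigene241, like polypeptide N-acetylgalactosaminyltransferase 14, was 3.41-fold higher (2.64 to 4.47). Unigene3028, whose Swiss-Prot match is an N-acetylglucosaminyltransferase of glycolipids, was 2.53-fold lower (2.08 to 3.08), and Unigene4919, of the same starting family, was 2.10-fold lower (1.56 to 2.85). The list thus had no common direction.

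**Figure D4:**
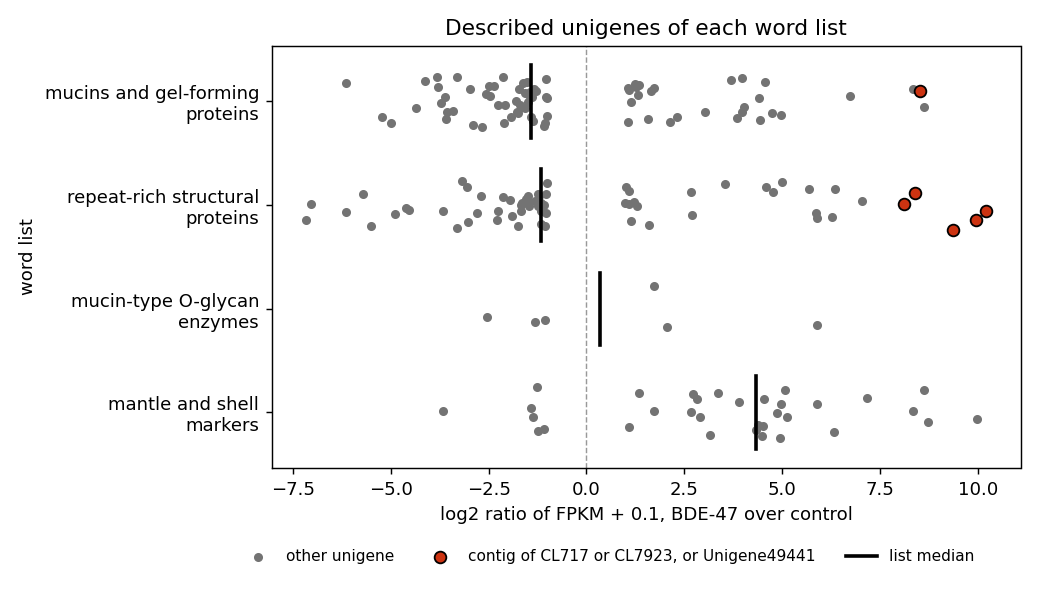
Log2 ratio of FPKM plus 0.1 (x axis) of each described unigene in 4 word lists (y axis), with the contigs of CL717 and CL7923 and Unigene49441 in red and list medians as black bars. Descriptions cover unigenes that the authors called, which leaves the gap between -1 and 1. The 5 red points of the repeat-rich list lie at its right end, whereas the list's median is -1.17. It is 5.88 over the 18 unigenes left without the 47 histidine-rich, cysteine-rich, arginine-rich and galectin names. Those names were left out after the values were seen, and the 18 include the 5 red points.

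Unigenes matched by mantle and shell words, and those matched to copepods, were mostly higher in BDE-47. Other lists, given in the next paragraph, differed in direction. Of 33 unigenes matched by mantle and shell words, 26 were higher and 6 lower, so that 81.2% of those past the rule were higher beside 36.1% of all described unigenes, and together they had 9971 control and 59185 BDE-47 fragments. Left out after the values were seen were 3 chance matches, all of them higher. They were CL18669.Contig8 and CL12524.Contig2, with helicase names in Swiss-Prot, and Unigene56538, a muscle myosin. Without these 3, 23 were higher and 6 lower, and 5 were listed at 0 in the control: the shematrin-like Unigene55453, whose Nr match is an eggshell protein of the liver fluke Clonorchis sinensis and which the gonad and flatworm words also match, the perlwapin-like Unigene57496 and the tyrosinase-like Unigene48698, Unigene52737 and Unigene51820. Unigenes whose first Nr entry is a copepod protein, counted after the data were seen, numbered 19, with 16 at 0 in the control and sums of 102 and 1907 fragments. By the rule of size, 11 of them were higher and 2 lower. For comparison, 2297 unigenes had a mollusc protein as first Nr entry, with 70 at 0 in the control, 767 higher and 1393 lower. Of the 19 copepod matches, 10 were vitellogenins, egg yolk proteins, with 0 control fragments and 1395 in the BDE-47 library. The part of mantle tissue or of copepods in the members' difference was not tested.

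Markers of the labelled tissue were present in both libraries. Digestive enzyme words matched 38 described unigenes with 21066 control and 16366 BDE-47 fragments, a fold of 0.761. One contig, CL2966.Contig2, held 17963 and 9135 of these fragments, and without it the sums were 3103 and 7231, a fold of 2.28, so the direction of the sum rests on that contig. By unigenes, 23 were higher and 10 lower, or 69.7% higher beside the same 36.1%, and 7 were listed at 0 in the control. Those 7 include Unigene55748 and CL9824.Contig1, trypsins whose first Nr entry is a copepod protein. The words also caught neurotrypsin names, which went both ways. Chance and copepod matches were not taken out of this list, nor out of the ciliated, muscle and blood cell lists. The blood cell words caught a DNA repair protein, for example. The ciliated list had 4 higher and 22 lower (15.4% higher), muscle 12 and 24 (33.3%), gonad 15 and 15 (50%), blood cells 41 and 29 (58.6%), and flatworm matches 8 and 7 (53.3%). Of the 15 higher in gonad, 7 were copepod vitellogenins, and without copepod matches 8 were higher and 15 lower. CL717.Contig7 is 1 of the 12 in muscle, through its myosin kinase name, and no other contig of the 11 is in any of these lists.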

How the data were processed

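Per the labels' protocols, poly(A) RNA was sequenced on an Illumina HiSeq platform. The submitters' processing notes name CASAVA 1.5. Assembly, alignment and counting tools: not given in the sources used here. Per the file headers, the authors' tables hold raw fragment counts of 124752 unigenes and FPKM values, which follow from the counts within rounding. The log2 ratio deposited by the authors is BDE-47 over control FPKM, with 0 set to 0.001. The deposited p-value and FDR come from a test that no source used here names, and neither is printed. A second deposited table holds 17625 called unigenes with database alignment scores, of which 4337 have a description (the first Nr entry or Swiss-Prot). The remaining unigenes carried none.

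With 1 library per group nothing was tested between conditions. Each fold compares fragments per library total, with exact conditional binomial (Clopper-Pearson) 95% intervals, and levels have exact Poisson intervals. PCR copies were not marked by molecular identifiers. TMM factors (edgeR 4.0.16 in R 4.3.3) used unigenes with at least 20 fragments. Values were computed in Python 3.11.15 with scipy 1.17.1.

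Named are the 4 members, every contig of their clusters, up to 3 highest and 3 lowest unigenes of at least 100 fragments in each word list, both with the members and outside their clusters, the latter added after the data were seen, and up to 10 with at most 3 control and at least 1000 BDE-47 fragments. Others are said to be chosen after their values were seen. The members and lists were chosen with earlier results of these data known. Alternatives were TMM scaling, other pseudocounts, other fragment floors, cluster sums and 1 unigene per description.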

Additional observations from a re-analysis of the deposited data

How the results depend on the processing

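No paired analysis was possible because each group has 1 library, and for the same reason no replicate could be left out. The folds of the 4 members stayed within their counting intervals with TMM factors and, for the 3 in clusters, with the cluster summed. For CL717.Contig7 that interval is wide (101 to 22316), and its fold of 564 became 2201 with the cluster summed. A pseudocount of 1 FPKM lowered the members' log2 ratios to 7.56 (CL7923.Contig1), 7.52 (CL717.Contig3), 5.87 (CL717.Contig7) and 6.34 (Unigene49441), as it must where the control level is below 1 FPKM. Without CL7923.Contig1 its cluster was at least 23.5-fold higher. Over all unigenes, 2789 were higher and 3988 lower with a floor of 100 fragments, 8 of the 11 among the former, and 17626 were higher with no floor. TMM scaling gave 12721 higher and 12407 lower. For mucins, 30 were lower with contigs summed by cluster and 27 with the floor of 100, and the word mucin alone left 11 higher and 18 lower. For repeat-rich proteins the floor of 100 gave 12 higher and 21 lower, and the shortened list 13 and 3. Without CL2966.Contig2 the fold of the summed digestive list turned from 0.761 to 2.28. At most 10 fragments in 1 library and at least 1000 in the other were found in 16 unigenes towards BDE-47 and 1 towards the control, and at most 3 against at least 500 in 32 and 6. Depth limits the control side, where 3 fragments on a contig as long as CL717.Contig1 equal 0.104 FPKM.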
